A study of Saccharomyces cerevisiae with 21 samples.

Results

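Biofilms of 2 Saccharomyces cerevisiae mutants, ste12 and ras2, were set directly against each other: 3 libraries titled ste12 and 3 titled ras2, 6 of the 21 libraries of a series on 7 strains. All 7126 deposited features were taken, without the closing totals of reads given to no gene, and 5786 of them had enough counts to be tested. Both mutants were made in the Sigma1278B background, a laboratory background that forms filaments, invades agar and builds mats, and the labels call both of them hypofilamentous. The 3 wild-type libraries of the same background, labelled as wild-type biofilm, are given beside them as a reference. Liquid cultures in rich glucose medium were kept at 30 °C for 16 h, spotted in 10 µl at an optical density of 20, and left for 24 h on agar with rich galactose medium before harvest, per the labels. The labels give neither the marker used to make a mutant nor its mating type, and nothing in them says that a group's 3 libraries were grown apart, so a p-value here reflects only how these libraries spread, which may be technical.

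Budding yeast turns to filamentous growth through several signalling routes. In the filamentation mitogen-activated protein kinase (MAPK) pathway, the mucin Msb2 and the GTPase Cdc42 start a kinase cascade that ends at the kinase Kss1 and the transcription factor Ste12, which binds DNA together with Tec1. In the Ras route, Ras2 with bound GTP stimulates adenylate cyclase, and the cyclic AMP so made frees the catalytic part of protein kinase A (PKA) from the inhibitory subunit Bcy1. PKA promotes growth and ribosome production, acts on the filamentation regulators Flo8 and Sfl1, and holds the stress factors Msn2 and Msn4 in check. Both routes are known to act on FLO11, the gene of the flocculin needed for mats and adhesion. Setting the loss of the one against the loss of the other asks which transcripts of the biofilm differ between 2 strains that share a phenotype label.

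Ste12 binds the pheromone response element, whose core is TGAAAC, and the promoters of some of the genes on which this comparison turns carry it. The stretches below run from 300 to 101 bases before the start codon, 5′ to 3′ on the coding strand, taken from RefSeq in build R64. TGAAAC on either strand (GTTTCA on the other) is in capitals. They lie at chrXII:230552-230751 (minus strand) for NFG1, chrX:722515-722714 (plus) for PGU1, chrVI:82280-82479 (plus) for STE2 and chrIX:322042-322241 (plus) for BAR1.
NFG1: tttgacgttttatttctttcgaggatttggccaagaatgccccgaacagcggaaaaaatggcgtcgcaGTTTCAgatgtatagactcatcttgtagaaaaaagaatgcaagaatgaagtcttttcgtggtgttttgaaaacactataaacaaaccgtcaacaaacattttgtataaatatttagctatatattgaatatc
PGU1: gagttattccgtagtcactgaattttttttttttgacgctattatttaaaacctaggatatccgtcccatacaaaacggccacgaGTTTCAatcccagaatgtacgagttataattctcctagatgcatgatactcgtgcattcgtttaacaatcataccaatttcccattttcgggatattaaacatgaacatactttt
STE2: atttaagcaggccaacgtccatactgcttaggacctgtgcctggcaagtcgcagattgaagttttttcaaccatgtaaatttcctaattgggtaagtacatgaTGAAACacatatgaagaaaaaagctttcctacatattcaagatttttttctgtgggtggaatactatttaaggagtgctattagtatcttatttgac
BAR1: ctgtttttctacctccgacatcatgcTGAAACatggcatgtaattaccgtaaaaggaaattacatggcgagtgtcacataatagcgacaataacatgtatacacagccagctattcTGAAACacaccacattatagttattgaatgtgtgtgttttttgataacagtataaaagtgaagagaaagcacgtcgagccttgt
Over the 300 bases before the start codon, TGAAAC occurred in 6 of 6 tested genes of the a-specific list. AXL1, which is not confined to a cells, is among these 6. TGAAAC also occurred in 6 of 12 filamentation MAPK target genes and in 19.4% of the promoters of all 6006 protein-coding genes. It was present in 20.3% of the 128 such promoters of genes at least 2-fold higher in ras2 and in 12.7% of the 204 of genes at least 2-fold higher in ste12. The Tec1 site CATTCC or CATTCT, on either strand, was present in 7 of the 12 filamentation target promoters and in 25.5% of all. A match is a description of letters and not evidence of binding. The promoters printed here and further on were picked after the matches were seen, as examples that carry the element.

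The genes after which the mutants are named were examined first. RAS2 (YNL098C, chromosome XIV, 439602 to 440570) had no count in the 3 ras2 libraries and 913 counts over the 3 ste12 libraries, where it stood at 181, 99 and 133 CPM (edgeR's normalised read count, relative to the library size after scaling). With a floor of 3 counts put in place of 0 over the ras2 group, RAS2 was 521-fold higher in ste12. The exact lower 95% limit on the ratio, from the counts themselves, was 423. STE12 (YHR084W, chromosome VIII, 274174 to 276240) kept counts in ste12, at 31.3, 28.5 and 24.1 CPM against 42, 55.1 and 55.3 in ras2 and 51.3, 68.6 and 57.2 in the wild type. Its 3 ste12 values lay below all the others, at a log2 fold change of ste12 over ras2 of -0.86 ± 0.16 (adjusted p = 0.000366). The ratio of ras2 to ste12 counts was 1.83 (95% interval 1.55 to 2.17), so the counts check the ste12 label only in part. Intervals and floors here hold counting error and nothing else. URA3, an enzyme of uracil synthesis often used as a selection marker, stood at 88.7, 80.3 and 90.5 CPM in ste12 and 102, 106 and 109 in ras2, and at 18.4, 15 and 17.1 in the wild type. It was higher in each mutant than in the wild type (log2 fold changes 2.36 ± 0.16 and 2.65 ± 0.15) and did not pass the test between the mutants (adjusted p = 0.0938). For URA3, a marker and regulation cannot be told apart. Of the 9 strain construction genes tested, URA3 among them, 2 were higher in ste12 and 1 in ras2. TRP1 was higher in ste12, at a log2 fold change over ras2 between 0.54 and 0.65 in the alternative fits. The other was FUS1 (0.33 ± 0.11), which is counted again below among the pheromone response genes. Its call was lost without any 1 of the 6 libraries. HIS3 was higher in ras2 (-0.63, adjusted p = 0.0306), a call lost without ste12 replicate 2, ras2 replicate 2 or ras2 replicate 3. The cause of these differences was not tested.

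Counts on features ran from 2388813 to 2609127 in ste12, from 3329947 to 3987529 in ras2 and from 2981795 to 3202099 in the wild type, so ras2 was the more deeply sequenced of the 2 mutants. Pairs of replicates differed by more than counting noise, the chi-square divided by its degrees of freedom being 3.50 to 15.1 in the mutants. In log2 CPM over the tested features, the first principal component of the 9 libraries, 46.3% of the variance, placed the ste12 libraries between -24.1 and -12.9, the wild type between -6.84 and -1.98, and ras2 between 22.4 and 24.7. The second, 21.6%, held the wild type between 16.9 and 17.2 and both mutants below 0. Of the mating type markers, STE2, STE6 and BAR1 of a cells and STE3 and SAG1 of alpha cells all had counts in every library, while MFA2, a gene of a factor, had none in any of the 9 libraries.

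**Figure D1:**
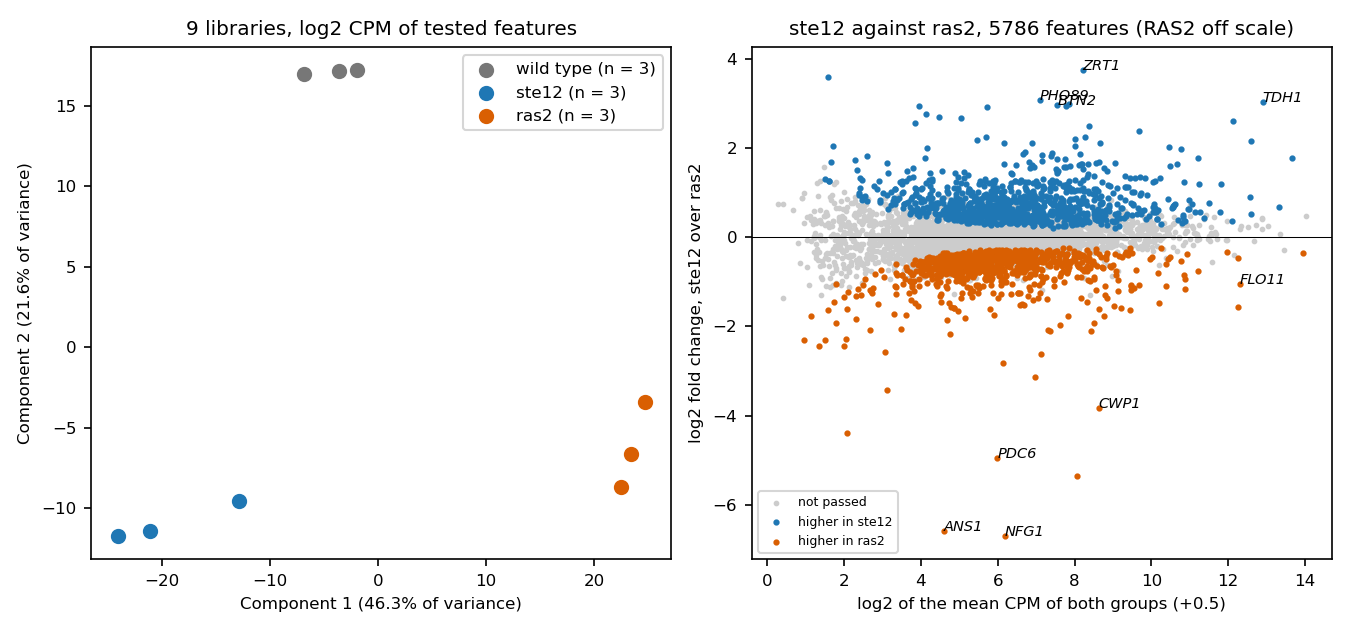
Left, the first and second principal components of the log2 CPM of the tested features in 3 wild-type, 3 ste12 and 3 ras2 libraries, each point a library; the mutants lie on opposite sides of the wild type along the first component and on the same side of it along the second. Right, the log2 fold change of ste12 over ras2 for each tested feature against the log2 of its mean CPM, with features that passed the test in colour; RAS2 lies off the scale.

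The mutants differed in 1923 of the 5786 tested features, 33.2%, by edgeR's quasi-likelihood test at a Benjamini-Hochberg adjusted p under 0.05. The number higher in ste12 was 963 and the number higher in ras2 was 960, each 16.6% of those tested. The 3 ste12 and the 3 ras2 values did not overlap in 46.5% of the tested features, and 43.4% had an unadjusted p under 0.05. At least 2-fold differences were fewer, 230 of them higher in ste12 (3.98%) and 138 higher in ras2 (2.39%). The median log2 fold change over all tested features was -0.01, with quartiles of -0.31 and 0.32. In these bulk libraries a smaller number of cells that use a gene and less RNA per cell cannot be told apart. By chromosome the median log2 fold change lay between -0.08 (chromosome I) and 0.02 (chromosome XIV). Below, every log2 fold change is ste12 over ras2 unless the wild type is named, positive where ste12 was higher, and is given with its standard error. Each list's count is to be read against the 16.6% of all tested features that passed in a given direction. Fold changes over the wild type are from the same fit, and the ste12 and ras2 ones share the wild-type libraries.

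Filamentation MAPK target genes were lower in ste12 than in ras2. Of the 12 tested, 11 were higher in ras2 and 0 in ste12, and their median log2 fold change was -1.23 against -0.01 for all tested features. The list was drawn up with earlier results of these libraries known, and is not independent evidence of its direction. NFG1 (YLR042C, chromosome XII, 229966 to 230451), a negative regulator of filamentous growth, stood at 0.919, 1.27 and 1.86 CPM in ste12, 107, 176 and 147 in ras2 and 242, 265 and 236 in the wild type. It was nearly silent in all 3 ste12 libraries and well expressed in all the others. Its log2 fold change was -6.70 ± 0.31 (adjusted p = 2.52e-11). SVS1 (YPL163C, chromosome XVI, 241918 to 242700), a cell wall and vacuolar protein, had 91, 79.5 and 69.1 CPM in ste12 and 270.0, 335 and 331 in ras2, with no overlap (-1.96 ± 0.13, adjusted p = 1.66e-09). Its wild-type values, 246, 246 and 266, lay just below those of ras2, and ras2 did not differ from the wild type by the test (0.30 ± 0.12, adjusted p = 0.0673).

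Some target genes stood near the wild-type level in ras2, while others were low in both mutants. PRY2, a secreted sterol-binding protein, and MSB2, the mucin at the head of the pathway, did not pass the test between ras2 and the wild type. PRY2 stood at 341 ± 57.9 CPM in ste12, 1056 ± 125 in ras2 and 1228 ± 149 in the wild type (mean ± SD, n = 3 each), a log2 fold change of -1.63 ± 0.15. MSB2 stood at 248, 317 and 228 CPM in ste12 and 704, 842 and 769.6 in ras2 (-1.55 ± 0.12, adjusted p = 8.50e-09), and at 925 ± 93.4 in the wild type. CLN1, a G1 cyclin needed for filaments, was 2.81-fold higher in ras2 (-1.49 ± 0.12), and its ras2 level was also above the wild type (0.32 ± 0.11, adjusted p = 0.0353).

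PGU1 and FLO11 were low in both mutants. PGU1 (YJR153W, chromosome X, 722815 to 723900), a secreted pectinase that often serves as the pathway's reporter, had 6.44, 9.35 and 6.03 CPM in ste12, 21, 17.5 and 14.3 in ras2 and 92.9, 107 and 105 in the wild type. All 6 mutant values lay far below the wild type, and the ste12 ones lay below the ras2 ones (-1.25 ± 0.22, adjusted p = 0.000248). FLO11 (YIR019C, chromosome IX, 389572 to 393675) had 3802, 3567 and 2515 CPM in ste12, 7096, 6213 and 7177 in ras2 and 14511, 18286 and 16624 in the wild type. The 3 groups did not overlap, and FLO11 was 2.07-fold higher in ras2 than in ste12 (-1.05 ± 0.14, adjusted p = 9.63e-06). TEC1, the partner of Ste12, was low in both (27.5 ± 2.14 and 35.9 ± 5.98 CPM against 69.5 ± 6.02), and its difference between the mutants was slight (-0.38 ± 0.14, adjusted p = 0.0485). That call was lost in 8 of the 11 alternatives, at adjusted p from 0.0511 to 0.218. The other members were KSS1 (-0.68), RGD2, a GTPase-activating protein (-0.50), and DDR48, a stress protein (-1.21), all higher in ras2, although DDR48 lost its call without ste12 replicate 2, ste12 replicate 3 or ras2 replicate 3. TIP1, a cell wall mannoprotein, was the 1 member that did not pass (-0.03 ± 0.15, adjusted p = 0.889), with 2388 ± 113 CPM in ste12 and 2440 ± 162 in ras2.

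Of the 18 tested pathway components other than STE12, 9 were higher in ras2 and 1 in ste12 (median -0.31). Next to MSB2, KSS1 and TEC1, which the target list also holds, these were SHO1, an osmosensor and adaptor (-0.59 ± 0.13), STE50, an adaptor of the cascade (-0.55 ± 0.12), STE20, the kinase at its top (-0.58 ± 0.17), RGA1, a GTPase-activating protein for Cdc42 (-0.39 ± 0.12), CDC24, its exchange factor (-0.31 ± 0.10), and CDC42 itself (-0.24 ± 0.08). CDC42 lost its call in 4 alternatives, RGA1 and CDC24 in 2 each and STE20 in 1. BEM1, a scaffold of cell polarity, was the component higher in ste12 (0.54 ± 0.11, adjusted p = 0.000626). The kinases STE11 (0.02 ± 0.12) and STE7 (-0.06 ± 0.14) and the Ste12 repressors DIG1 (-0.30 ± 0.14) and DIG2 (-0.34 ± 0.21) did not pass.

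**Figure D2:**
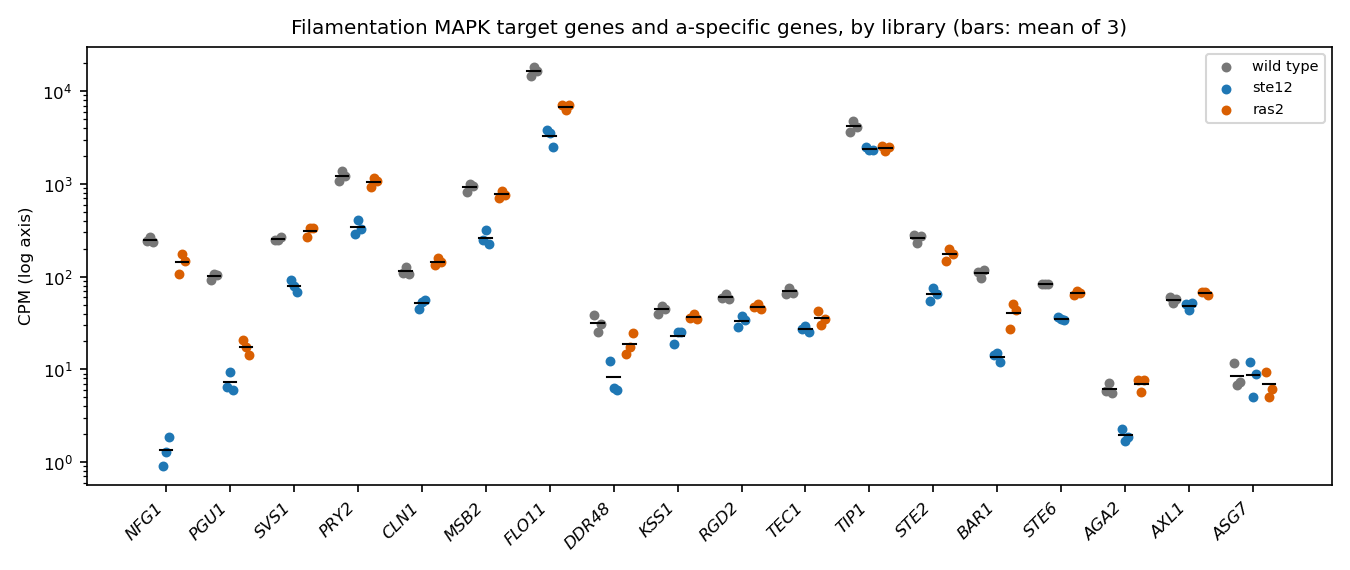
CPM on a log axis of the 12 filamentation MAPK target genes (NFG1 to TIP1) and the 6 tested genes of the a-specific list (STE2 to ASG7), each point a library of the wild type, ste12 or ras2 and each bar a mean of 3. The ste12 points lie below the ras2 points in most of these genes; for PGU1 and FLO11 both mutants lie below the wild type.

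The a-specific genes, which a cells use for mating and which Ste12 with Mcm1 is known to control, were also lower in ste12. Of the 6 tested, 5 were higher in ras2 and 0 in ste12 (median -1.18). The 5 include AXL1, which is not confined to a cells. This count of 5 held in every alternative tried. STE2, the receptor for alpha factor, stood at 55.2, 76.1 and 64.9 CPM in ste12, 148, 199 and 178 in ras2 and 279, 233 and 273 in the wild type (-1.42 ± 0.13, adjusted p = 1.47e-07). BAR1, the protease that clears alpha factor, had 14.3, 14.9 and 12.1 CPM in ste12 and 27.2, 50.6 and 43.5 in ras2 (-1.56 ± 0.23), against 113, 96.9 and 119 in the wild type. For both genes the ras2 values lay between those of ste12 and the wild type without overlap, and ras2 was itself below the wild type (STE2 -0.58 ± 0.12, BAR1 -1.43 ± 0.19). STE6, which exports a factor (-0.94 ± 0.08), AGA2, the binding subunit of the mating agglutinin (-1.83 ± 0.33), and AXL1, a protease that processes a factor (-0.46 ± 0.10), were the others, and ASG7, a regulator of the pheromone response, did not pass (0.33 ± 0.34). The AGA2 counts were low, 13 over the 3 ste12 libraries and 80 over the 3 ras2 libraries. Among the 5 alpha-specific genes 4 were tested and 3 were higher in ras2: AFB1, a barrier to a factor (-2.18 ± 0.20), SAG1 (-0.69 ± 0.17) and STE3, the receptor for a factor (-0.43 ± 0.13). AFB1 (YLR040C, chromosome XII, 228908 to 229582) lies close to NFG1. STE3 lost its call in 4 alternatives.

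Pheromone response genes were found on both sides. Of 25 tested, 7 were higher in ras2 and 2 in ste12, and the median was -0.09. PRM5, a pheromone-regulated membrane protein, was higher in ras2 (-1.40 ± 0.21, adjusted p = 5.37e-05), as were GIC2, an effector of Cdc42 (-0.94 ± 0.15), and FAR1, an inhibitor of the cell cycle (-0.71 ± 0.13). PRM4 was higher in ste12 (1.04 ± 0.17, adjusted p = 0.000104). FUS1, a membrane protein of cell fusion, was the other (0.33 ± 0.11, adjusted p = 0.0308), a call that was lost without any 1 of the 6 libraries.

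Of the 9 flocculins and mating adhesins, 6 were higher in ras2 and 0 in ste12 (median -0.69). Besides FLO11, AGA2 and SAG1 they were FLO10, another flocculin (-1.20 ± 0.29, adjusted p = 0.00411), AGA1, the anchor of the mating adhesin (-0.98 ± 0.21), and FLO5 (-0.57 ± 0.18), which shares sequence with FLO1 and FLO9, so that its reads may be split, and which lost its call in 4 alternatives. FLO1 (-0.45 ± 0.17), FIG2 (-0.26 ± 0.13) and FLO9 (-0.04 ± 0.32) did not pass. Of 20 structural cell wall proteins 9 were higher in ras2 and 3 in ste12. CWP1 (YKL096W, chromosome XI, 261132 to 261851), a mannoprotein of the cell wall, had 71.3, 35.3 and 50.6 CPM in ste12, 904, 579 and 732 in ras2 and 268, 189 and 249 in the wild type. The mutants lay on opposite sides of the wild type, each past the test against it (ste12 -2.17 ± 0.19, ras2 1.65 ± 0.18), and were 14.1-fold apart (-3.82 ± 0.20, adjusted p = 1.22e-10). CWP2, another major mannoprotein, was at 7282 ± 547 CPM in ras2, near the 7306 ± 405 of the wild type, and at 2476 ± 226 in ste12 (-1.56 ± 0.11). SPI1, a stress-induced wall protein, went the other way (1.59 ± 0.12, adjusted p = 5.41e-09). Of 25 glucan and chitin enzymes 10 were higher in ras2 and 4 in ste12, the former including EXG1, a glucanase (-0.81 ± 0.12), and CHS3, the main chitin synthase (-0.65 ± 0.12). Without ste12 replicate 3 the 10 became 5, and without ste12 replicate 2 the 4 became 2. Of the 3 structural proteins higher in ste12, 1 was left without ste12 replicate 1 or without ras2 replicate 3.

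The transcription factors of filamentous growth were mixed. Of 21 tested, 7 were higher in ras2, TEC1 among them, 3 were higher in ste12, and the median was -0.18. CUP9, a repressor, was higher in ras2 (-0.88 ± 0.10, adjusted p = 1.80e-06), as was NRG1, a repressor of FLO11 (-0.84 ± 0.18). HMS2 (0.78 ± 0.11), RIM101 (0.41 ± 0.11) and ASH1, which represses in daughter cells (0.34 ± 0.09), were higher in ste12. FLO8, which drives FLO11 downstream of PKA (-0.24 ± 0.13), SFL1, its opponent (0.17 ± 0.10), and PHD1 (0.08 ± 0.16) did not pass. The 7 higher in ras2 became 4 without ste12 replicate 1, 3 without ste12 replicate 3 or ras2 replicate 1, and 2 without ras2 replicate 3.

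Transcripts of the Ras and PKA pathway differed in both directions. Of the 25 tested besides RAS2, 7 were higher in ras2 and 3 in ste12 (median -0.24). The upstream regulators of Ras were among those higher in ras2. CDC25, the exchange factor that loads Ras with GTP, had 72.2, 64.2 and 54.3 CPM in ste12 and 106, 109.8 and 109 in ras2 (-0.77 ± 0.12, adjusted p = 5.31e-05), without overlap, and its wild-type values, 75.5, 67.6 and 61.4, overlapped those of ste12. SDC25, its paralog (-0.90 ± 0.15), and IRA1, which returns Ras to the GDP form (-0.67 ± 0.12), were also higher in ras2, while IRA2 did not pass (0.26 ± 0.11). RAS1, the paralog of RAS2, stood at 67.6, 83.3 and 73.8 CPM in ste12 and 87.6, 91.8 and 86.4 in ras2 and did not pass (-0.24 ± 0.17, adjusted p = 0.299). BCY1, the inhibitory subunit of the kinase, was higher in ras2 as well (-0.68 ± 0.20). BCY1 lost its call in 3 alternatives, and the number of members higher in ras2 lay between 5 and 11 over the alternatives.

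Downstream of the kinase, MSN4 had 97, 62 and 50.6 CPM in ste12 and 153, 151 and 176 in ras2 (-1.19 ± 0.16, adjusted p = 1.41e-05). Its ras2 values were above those of the wild type, 105, 99.2 and 99.5, and MSN2 differed in the same direction (-0.58 ± 0.11). IGO1, which acts below the kinase Rim15 to preserve transcripts at starvation, was higher in ste12, at 233, 285 and 292 CPM against 99.7, 99.8 and 98.5 in ras2 (1.44 ± 0.10, adjusted p = 2.48e-09), with the wild type between them at 159.7 ± 1.96. GPB1, a partner of the G protein Gpa2 (0.62 ± 0.13), and RGS2, which switches Gpa2 off (0.66 ± 0.19), were the other members higher in ste12. CYR1, adenylate cyclase (-0.47 ± 0.21), the receptor gene GPR1 (0.08 ± 0.13) and the kinase gene YAK1 (-0.28 ± 0.17) did not pass.

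Genes under Msn2 and Msn4 were split between the mutants. Of 36 tested, 11 were higher in ras2 and 7 in ste12 (median -0.43). HSP26, a small heat shock protein, had 6977, 7556 and 8529 CPM in ste12, 1478, 1115 and 1193 in ras2 and 4194, 2543 and 3590 in the wild type (2.61 ± 0.21, adjusted p = 2.30e-08). GRE1, a hydrophilin of stress, was the reverse, with 462, 781 and 614 CPM in ste12, 1675, 1774 and 1714 in ras2 and 674, 1290 and 884 in the wild type (-1.48 ± 0.19, adjusted p = 7.67e-06). HOR7, a gene induced by hyperosmotic stress, was higher in ste12 (1.82 ± 0.19), and RTN2, a reticulon of the endoplasmic reticulum, in ras2 (-2.11 ± 0.52). Over the alternatives the number higher in ras2 lay between 9 and 18. RTN2 varied widely within a group, at 217, 51.8 and 117 CPM in ste12 and 755, 385 and 519.9 in ras2. The stress response element AGGGG, searched on both strands, occurred before 27 of the 36 genes of this list and before 22.2% of all protein-coding genes, 29.4% of those at least 2-fold higher in ste12 and 30.5% of those at least 2-fold higher in ras2. Of 21 trehalose and glycogen genes 3 were higher in ras2 and 1 in ste12, with TPS2, a phosphatase of trehalose synthesis, at 241, 101 and 137 CPM in ste12 and 495, 335 and 400.4 in ras2 (-1.36 ± 0.35, adjusted p = 0.00575). The number higher in ras2 moved between 2 and 10 over the alternatives.

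Heat shock genes were higher in ste12, in 19 of 30 tested cases against 1 higher in ras2 (median 0.69). BTN2 (YGR142W, chromosome VII, 772454 to 773686), which sorts misfolded proteins, had 330.1, 317 and 350.2 CPM in ste12, 46.1, 43.9 and 37.5 in ras2 and 147, 80.3 and 124 in the wild type. The groups did not overlap, and the wild type lay between ste12 (1.51 ± 0.19 over the wild type) and ras2 (-1.46 ± 0.20); the mutants were 7.82-fold apart (2.97 ± 0.20, adjusted p = 2.82e-09). SSA4, an inducible Hsp70 chaperone, had 438, 333 and 381 CPM in ste12, 56.2, 45.9 and 47.4 in ras2 and 243, 106 and 191 in the wild type (2.95 ± 0.27). HSP30, a membrane protein of stress (2.14 ± 0.19), APJ1, a J-domain chaperone (1.89 ± 0.13), and FES1, an exchange factor of Hsp70 (1.58 ± 0.12), followed the same order of groups. The heat shock element that Hsf1 binds is built of GAA units, and GAANNTTC, a palindrome, occurred in the 300 bases before 14 of the 30 genes and before 11.5% of all protein-coding genes. It was no more frequent among genes at least 2-fold higher in ste12, at 8.82%, or in ras2, at 10.2%, and this motif was added after the data were seen. BTN2, SSA4, HSP30 and APJ1 had no match to it in these 300 bases. The FES1 stretch from 300 to 101 bases before the start codon (chrII:444794-444993, minus strand, R64, from RefSeq) holds one, in capitals.
FES1: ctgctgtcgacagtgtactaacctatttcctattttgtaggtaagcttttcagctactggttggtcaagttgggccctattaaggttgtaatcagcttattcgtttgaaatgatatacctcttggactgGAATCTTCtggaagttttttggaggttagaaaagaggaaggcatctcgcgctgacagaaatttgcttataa

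**Figure D3:**
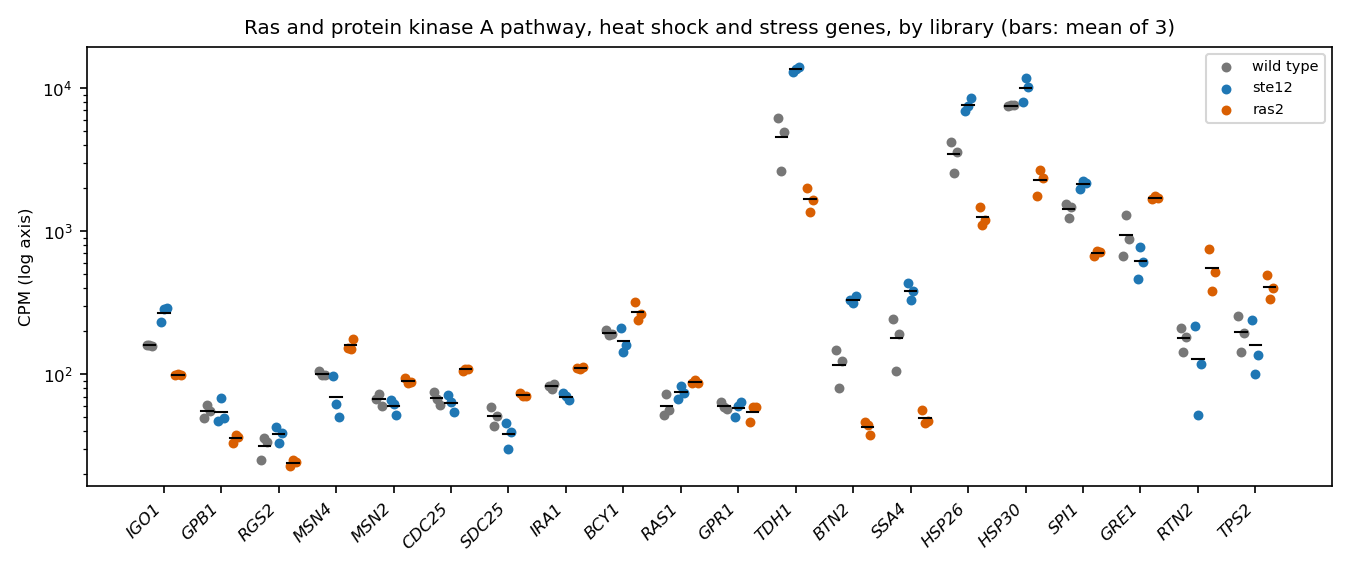
CPM on a log axis of members of the Ras and PKA pathway (IGO1 to GPR1) and of named glycolytic, heat shock and stress genes (TDH1 to TPS2), each point a library and each bar a mean of 3. TDH1, BTN2, SSA4, HSP26, HSP30 and SPI1 are higher in ste12 than in ras2, and MSN4, GRE1, RTN2 and TPS2 are higher in ras2.

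Phosphate genes were higher in ste12 in 12 of 16 tested cases and in ras2 in 0, with a median of 1.15, and the count was 12 or 13 in every alternative. PHO89 (YBR296C, chromosome II, 796798 to 798522), a sodium and phosphate symporter, had 348, 153 and 228 CPM in ste12, 13.9, 38.9 and 32.8 in ras2 and 8.07, 8.13 and 7.33 in the wild type. It was above the wild type in both mutants and 8.41-fold higher in ste12 than in ras2 (3.07 ± 0.34, adjusted p = 1.09e-06). SPL2, a regulator of phosphate uptake, had 43.2, 17.4 and 27.8 CPM in ste12, 5.03, 4.49 and 3.46 in ras2 and 4.84, 6.83 and 3.49 in the wild type (2.76 ± 0.42). PHO84, the high-affinity phosphate transporter, stood at 3523, 4090 and 3489 CPM in ste12 against 863, 1275 and 1099 in ras2, where it overlapped the wild type (1.78 ± 0.13). For VTC1, a subunit of the polyphosphate polymerase, and PHO8, the vacuolar alkaline phosphatase, the wild type lay between the mutants: VTC1 had 473, 505 and 505 CPM in ste12, 141, 169 and 167 in ras2 and 296, 274 and 294 in the wild type (1.64 ± 0.11), and PHO8 had a log2 fold change of 1.54 ± 0.10. The near-identical acid phosphatase genes of the list share reads and are uncertain.

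Pho4, the factor of this regulon, binds CACGTG. That palindrome occurred before 7 of the 16 tested phosphate genes, 3.55% of all protein-coding genes, 7.35% of those at least 2-fold higher in ste12 and 1.56% of those at least 2-fold higher in ras2. It did not occur in the 300 bases before PHO89, PHO84 or PHO8. It stood 3 times in the 300 bases before SPL2 and 1 time before VTC1, and the stretch shown holds 1 of the 3. The stretches from 300 to 101 bases before the start codon, at chrVIII:375201-375400 (minus strand) for SPL2 and chrV:302506-302705 (plus) for VTC1, in R64 from RefSeq, have it in capitals.
SPL2: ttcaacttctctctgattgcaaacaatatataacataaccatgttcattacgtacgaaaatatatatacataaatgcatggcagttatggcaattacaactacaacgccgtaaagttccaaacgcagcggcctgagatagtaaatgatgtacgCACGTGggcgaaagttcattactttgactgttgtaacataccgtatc
VTC1: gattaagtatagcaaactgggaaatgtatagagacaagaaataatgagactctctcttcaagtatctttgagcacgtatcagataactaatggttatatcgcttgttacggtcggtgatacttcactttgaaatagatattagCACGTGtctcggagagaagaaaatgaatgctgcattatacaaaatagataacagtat

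Genes of sugar and carbon use separated the mutants as well. Glycolysis and ethanol formation held 10 members higher in ste12 and 2 higher in ras2 of 23 (median 0.35). TDH1 (YJL052W, chromosome X, 338271 to 339269), an isozyme of glyceraldehyde-3-phosphate dehydrogenase, had 13004, 13734 and 14080 CPM in ste12, 1993, 1359 and 1667 in ras2 and 6172, 2649 and 4939 in the wild type. The wild type lay between the mutants, which were 8.13-fold apart (3.02 ± 0.30, adjusted p = 3.02e-07). ENO1, an enolase, differed in the same direction (1.78 ± 0.28). Both genes have close paralogs with which reads may be shared. PDC6 (YGR087C, chromosome VII, 651290 to 652981), a minor pyruvate decarboxylase, was the reverse, with 119, 127 and 121 CPM in ras2, 2.76, 2.97 and 6.03 in ste12 and 6.45, 6.83 and 6.28 in the wild type (-4.96 ± 0.21, adjusted p = 1.13e-11). Its ste12 level did not pass the test against the wild type (-0.74 ± 0.31, adjusted p = 0.147), and all 3 ras2 values stood far above both. Of 16 hexose transporters and sensors 8 were higher in ste12 and 3 in ras2, with HXT6, a high-affinity transporter whose near-identical copy HXT7 was not tested, at 1369 ± 164 CPM in ste12 and 264 ± 30.9 in ras2 (2.37 ± 0.15), and HXT5, expressed at slow growth, at 293 ± 26.8 and 883 ± 26.6 (-1.59 ± 0.24). Leaving out any 1 of the 6 libraries took the number of these genes higher in ste12 to between 4 and 6.

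Of the 10 genes listed under the galactose pathway, on whose sugar the biofilms grew, 5 were higher in ras2 and 0 in ste12 (median -0.58). GAL7, an enzyme of galactose breakdown, had 1158, 563 and 826 CPM in ste12, 1695, 1900 and 1833 in ras2 and 1147, 627 and 924 in the wild type (-1.09 ± 0.32, adjusted p = 0.0142). It lost its call without ste12 replicate 2 (adjusted p = 0.0752), and the 5 members then became 3. GAL80, the repressor of the pathway (-0.88 ± 0.15), GAL3, its inducer (-0.59 ± 0.13), and GAL10 (-0.75 ± 0.24) were also higher in ras2. So was GAL11 (-0.55 ± 0.14), a general transcription gene that is not specific to galactose. GAL1 (-0.39 ± 0.29), GAL2 (-0.57 ± 0.43) and GAL4 (-0.21 ± 0.12) did not pass.

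Of 28 genes for the use of non-fermentable carbon, 15 were higher in ste12 and 0 in ras2 (median 0.68). ADY2, an acetate transporter, had 431, 426 and 408 CPM in ste12, 88.1, 96.8 and 90.4 in ras2 and 379, 241 and 336 in the wild type (2.20 ± 0.20, adjusted p = 8.50e-08). The 3 groups did not overlap, and ste12 did not pass against the wild type (0.40 ± 0.19, adjusted p = 0.2). The carnitine genes YAT1 (1.65 ± 0.10), YAT2 (1.14 ± 0.10) and CRC1 (0.98 ± 0.10) differed in the same direction. Of gluconeogenesis, PCK1 was among the 15 (0.68 ± 0.17) and FBP1 did not pass (0.01 ± 0.21). The fatty acid oxidation genes POX1 (0.23 ± 0.25), FOX2 (0.31 ± 0.25) and POT1 (-0.18 ± 0.28) were also among the 13 that did not pass. Of the tricarboxylic acid cycle 5 of 18 genes were higher in ste12 and 0 in ras2; CIT3, a mitochondrial citrate synthase, stood at 192 ± 14 CPM in ste12, 44.1 ± 7.82 in ras2 and 269.8 ± 12.6 in the wild type (2.12 ± 0.16). The 5 became 2 without ras2 replicate 2 or ras2 replicate 3, and 3 without any 1 of the ste12 libraries. The respiratory chain and ATP synthase had 16 of 34 higher in ste12 and 1 in ras2 (median 0.37), COX13 (1.13 ± 0.09) and QCR8 (1.21 ± 0.11) among the former. Mitochondrial ribosomal proteins had 22 of 67 higher in ste12 and 2 in ras2, and the 22 became 13 without ste12 replicate 3 or without ras2 replicate 2. The 22 include MRP8, despite its name not an established mitochondrial ribosomal protein. The 2 higher in ras2 became 0 without ste12 replicate 1, ras2 replicate 1 or ras2 replicate 3.

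Cytosolic ribosomal proteins and ribosome biogenesis, both promoted by PKA, gave few calls. Of 137 genes listed as ribosomal proteins 14 were higher in ste12 and 0 in ras2, a smaller share than the 16.6% of all features, with a median of 0.21. The 137 include RPP1, a ribonuclease P subunit, which did not pass. Of 76 biogenesis genes 5 were higher in ste12 and 0 in ras2 (median 0.34). NOP16 (1.12 ± 0.21) and NOP6 (1.01 ± 0.27) were examples. These counts were unsteady, between 4 and 37 for the ribosomal proteins and between 2 and 16 for biogenesis over the alternatives. Many ribosomal proteins are encoded by near-identical pairs whose reads may be split.

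Histone transcripts, and some cyclin transcripts, were higher in ras2. All 10 histone genes measured passed in that direction, with a median of -0.74; the number was between 7 and 10 over the alternatives. HTB2, a copy of histone H2B, had 211, 219 and 263 CPM in ste12, 521, 546 and 514 in ras2 and 248, 245 and 255 in the wild type (-1.19 ± 0.13, adjusted p = 7.70e-07). The wild type and ste12 overlapped and ras2 stood above both, as it did for HHF1, a copy of histone H4 (-0.95 ± 0.12). For HHO1, the linker histone, the wild type lay between the mutants (-1.01 ± 0.16). Reads of paired histone genes may be split between the copies. Of 17 cyclins and related genes 7 were higher in ras2 and 1 in ste12. CLN2, a G1 cyclin, had 49.2, 54.4 and 38 CPM in ste12, 101, 122 and 119.8 in ras2 and 56.8, 54.9 and 41.9 in the wild type (-1.27 ± 0.14). PCL1, a cyclin of the kinase Pho85 (-1.25 ± 0.12), was also higher in ras2, and PCL5, another, in ste12 (1.58 ± 0.21). Genes of daughter cell separation had 4 of 14 higher in ste12 and 2 in ras2, PRY3 (1.03 ± 0.11) and DSE4, a daughter-specific glucanase (0.76 ± 0.15), among the former. The 2 higher in ras2 became 0 without ste12 replicate 2, ras2 replicate 1 or ras2 replicate 3, and 1 without ste12 replicate 3 or ras2 replicate 2.

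**Figure D4:**
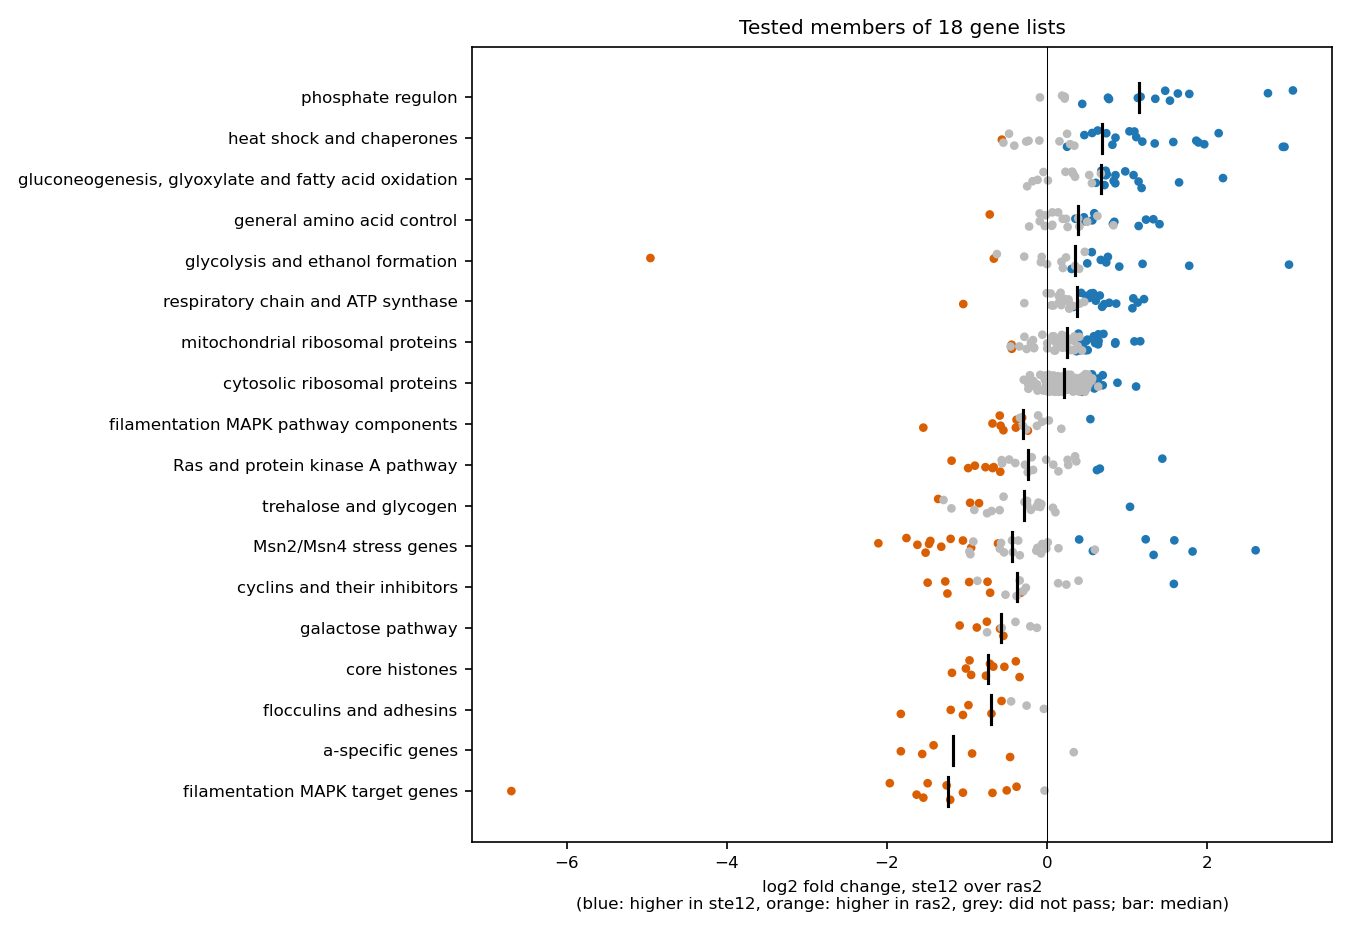
Log2 fold change of ste12 over ras2 for each tested member of 18 gene lists, coloured by direction where it passed the test, with the list's median as a bar. Phosphate and heat shock genes lie mostly to the right, where ste12 was higher, and filamentation target, a-specific and histone genes to the left, where ras2 was higher.

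Amino acid and nitrogen genes leaned to ste12. Of general amino acid control 11 of 29 were higher in ste12 and 1 in ras2 (median 0.39), ARG4 of arginine synthesis (1.41 ± 0.19) and ARO3 of aromatic amino acid synthesis (1.24 ± 0.14) among them. Of 26 sulfur genes 6 were higher in ste12 and 0 in ras2, MUP3, a methionine permease (0.86 ± 0.14), included. Of 22 nitrogen catabolite repression genes 6 were higher in ste12 and 3 in ras2, with MEP3, an ammonium permease (1.76 ± 0.20), and PUT1, proline oxidase (1.31 ± 0.10), in the first group. The 3 higher in ras2 became 1 without ste12 replicate 2 or ste12 replicate 3. In pyrimidine synthesis URA8, a CTP synthase, was higher in ste12 (1.64 ± 0.11) and FUR4, the uracil permease, in ras2 (-0.67 ± 0.14), 2 and 1 of 12 in all.

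Of 15 zinc genes 7 were higher in ste12 and 1 in ras2, and the 7 became 4 without ste12 replicate 1, ras2 replicate 1 or ras2 replicate 3. ZRT1 (YGL255W, chromosome VII, 20978 to 22108), the high-affinity zinc transporter, had 382, 713 and 552 CPM in ste12, 32.2, 44.9 and 45.7 in ras2 and 139, 422 and 227 in the wild type. The ste12 and wild-type values overlapped, and ras2 was 13.4-fold below ste12 (3.74 ± 0.47, adjusted p = 6.11e-06). Of 25 iron genes 3 were higher in ste12 and 1 in ras2, and FIT3, a mannoprotein that retains iron (1.25 ± 0.40), lost its call in 3 alternatives; without ste12 replicate 2, or without ras2 replicate 2, no iron gene was higher in ste12, and without ras2 replicate 3 there was 1. Of 16 hypoxic genes 4 were higher in ste12 and 0 in ras2: FET4, a low-affinity metal transporter that the zinc list also holds (1.71 ± 0.15), CYC7, an isoform of cytochrome c (1.28 ± 0.23), ANB1, a hypoxic translation factor (0.70 ± 0.21), and AAC3, a hypoxic ADP/ATP carrier (0.83 ± 0.28). Without ste12 replicate 3, or without ras2 replicate 1, these 4 became 2. Of 24 seripauperins only 5 had counts enough to be tested, and PAU17 (-1.67 ± 0.16) and PAU5 (-0.73 ± 0.17) were higher in ras2; reads of these near-identical genes can be shared. Of 25 ergosterol genes 4 were higher in ste12 and 1 in ras2, the largest of them IDI1 of isoprenoid synthesis (0.50 ± 0.13). The call in ras2 was lost without any 1 library other than ste12 replicate 1. Of 20 meiosis genes 4 were higher in ras2 and 0 in ste12, and the 4 became 2 without ste12 replicate 3 or without ras2 replicate 2. NDJ1, a telomere protein of meiosis, had 9 counts over the ste12 libraries and 172 over the ras2 libraries, at 1.38, 2.12 and 0.464 and 12.4, 16.7 and 15.6 CPM (-3.44 ± 0.28), and 31.6, 33.5 and 38.7 in the wild type.

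The remaining large differences belonged to genes of no list. ANS1 (YHR126C, chromosome VIII, 359702 to 360181), a gene of a putative cell surface protein, had 3 counts over the 3 ste12 libraries and 542 over the 3 ras2 libraries, a ratio of 106 (exact 95% interval 35.9 to 514). It stood at 41.1, 55.4 and 44.7 CPM in ras2 and at 0, 0 and 0.698 in the wild type. The wild type and ste12 overlapped near 0, and all 3 ras2 values stood above both. PMA2, a minor isoform of the plasma membrane proton pump, had 261, 196 and 218 CPM in ras2, 41.4, 16.1 and 19.5 in ste12 and 28.7, 48.1 and 41.5 in the wild type (-3.14 ± 0.37). AQY1, an aquaporin (-2.62 ± 0.27), and PNS1, a membrane protein related to choline transporters (-2.10 ± 0.30), showed the same order, with ste12 and the wild type overlapping and ras2 above both. On the other side, RSB1, which moves sphingoid bases across the plasma membrane, had 12.1, 12.7 and 11.4 CPM in ras2, 72.6, 108 and 94.2 in ste12 and 147, 94.6 and 131 in the wild type (2.92 ± 0.21, adjusted p = 6.35e-09). FDH1, formate dehydrogenase, had 58.8, 55.7 and 55.2 CPM in ste12 and 8.28, 8.98 and 9.39 in ras2 (2.66 ± 0.42), against 128, 48.8 and 96 in the wild type, and may share reads with a near-identical copy. Of the 10 largest differences on each side, the low ras2 level set ZRT1, RSB1 and FDH1 apart and the high ras2 level set ANS1, PDC6, PMA2, AQY1 and PNS1 apart, while for NFG1, NDJ1 and AFB1 the ste12 level was the farther from the wild type.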

How the data were processed

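RNA was sequenced from 3 libraries of each of 7 strains, and the deposited files hold the authors' whole-number counts of reads per feature, one file a library. Tools are named, without roles or settings, per the submitters' processing notes: bcl2fastq, TopHat2 (version 2.0.19), HTSeq (version 0.6.1) and genome build R64; for the strand setting and the annotation, no source used here gives a statement. The closing totals of reads given to no gene entered neither library sizes nor tests: they made up 42.1% to 42.4% of the records in ste12 and 40.8% to 41.3% in ras2, and reads with no unique place made up 20.8% ± 0.503 and 18.8% ± 0.264 (SD, n = 3).

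All 21 libraries were fitted together with edgeR (version 4.0.16, R version 4.3.3): filterByExpr on the groups, TMM scaling, which gave factors from 0.900 to 0.911 in ste12 and from 1.016 to 1.023 in ras2, and the quasi-likelihood test of ste12 minus ras2, with Benjamini-Hochberg adjustment over the 5786 tested features. A standard error is the size of the log2 fold change divided by the root of the F statistic. The pipeline was tested on simulated counts. Alternatives were DESeq2 (version 1.42.0), its size factors, no filter, the 6 libraries alone, a replicate block, each library left out and a stricter threshold.

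Members and gene lists were chosen with earlier results of these data known. Named were STE12, RAS2 and the strain construction genes, FLO11 and PGU1, the 10 largest differences on each side among features with a symbol, adjusted p under 0.05, no overlap between the groups and at least 50 counts on average in the higher one, up to 4 members of each list by smallest p, and any member of the lists on the MAPK and Ras pathways, filamentation factors and flocculins. Of the 7126 features 6048 matched a RefSeq locus tag. Promoters were read from the R64 genome as the 300 bases before each start codon; only bases 300 to 101 are printed. A named result that is withheld is not reported here.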

Additional observations from a re-analysis of the deposited data

How the results depend on the processing

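The number of features that passed, 1923, was 1952 with DESeq2, 1931 with its size factors, 1876 with no filter and 1945 with the 6 libraries alone. Leaving out 1 library gave between 1430 (without ste12 replicate 3) and 1887 (without ste12 replicate 1), with 737 to 879 higher in ste12 and 676 to 1008 higher in ras2. At an adjusted p under 0.01 the number was 1155, of which 626 were higher in ste12 and 529 in ras2. With the replicate block 2269 passed, 1132 higher in ste12 and 1137 in ras2, and 1918 of these were among the 1923. The main fit did not take the numbers as pairing the libraries. Deviations from the group mean of same-numbered ste12 and ras2 libraries correlated at 0.34, 0.32 and -0.01 for numbers 1, 2 and 3. For ste12 replicate 1 with ras2 replicate 2 the value was -0.33, and for ste12 replicate 2 with ras2 replicate 1 it was -0.34. Libraries numbered 1 and 2 thus differed in a partly shared way in both mutants. Whether the numbers mark a pairing or a batch was not tested. Of the 171 named genes that passed, 136 passed in each of the 11 alternatives and 35 lost the call in at least 1; of the other named genes 13 passed in at least 1. None of the 171 changed direction in these alternatives. Of the named genes that had not passed, 16 changed sign. Their log2 fold change over the 11 alternatives ranged from -0.082 to 0.074 for LEU2, from -0.084 to 0.11 for STE4, from -0.25 to 0.0042 for RGA2, from -0.25 to 0.0031 for BEM4, from -0.17 to 0.034 for STE7, from -0.026 to 0.095 for STE11, from -0.090 to 0.0075 for TIP1, from -0.040 to 0.32 for TOS8, from -0.075 to 0.18 for MSN1, from -0.29 to 0.079 for ROX1, from -0.079 to 0.17 for PHD1, from -0.21 to 0.21 for FLO9, from -0.029 to 0.17 for GPR1, from -0.11 to 0.039 for GIS1, from -0.030 to 0.23 for NDT80, and from -0.54 to 0.082 for SPO11. With the 6 libraries alone it was -0.0041 for LEU2 and -0.0017 for STE4. The recounts of lists with a library left out were added after the data were seen.

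The ste12 libraries were the shallower ones, which limits low-count genes such as AGA2, NDJ1 and ANS1. The labels do not give a batch, and the 2 groups differ in depth, so depth and genotype cannot be told apart.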
